A study of Mus musculus with 9 samples.

Results

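The 10 genes described here encode the contractile apparatus of smooth muscle and of myofibroblasts, the stromal cells that acquire muscle-like stress fibres. They were chosen by name: the actins Acta2 and Actg2, the actin-binding proteins Tagln, Cnn1, Cnn2 and Cald1, the tropomyosins Tpm1 and Tpm2, and the myosin subunits Myh11 and Myl9. All 10 were measured, each by a single probe set, among 19938 genes. Levels were measured on 9 arrays, 3 in each group. The osteosarcoma group held 3 fibroblastic lines, 493H (female), 494H (male) and 716H (female), from adult C57BL/6 mice of genotype Osx-Cre p53fl/fl Rbfl/fl, in which Cre under the osteoblast-lineage promoter Osx deletes floxed p53 and Rb. The lines were subconfluent, below passage 8, and each had 1 array. The osteoblast group held 3 cultures of Kusa4b10, a mouse bone marrow stromal line, after 21 days in medium with ascorbate, and the pre-osteoblast group held 3 undifferentiated Kusa4b10 cultures, for which the labels give no genotype. The labels call these cultures independent samples, but all come from 1 line. Osteosarcoma and Kusa4b10 cells differ in origin and culture history as well as in tumour state, and osteoblasts and pre-osteoblasts differ in days of culture, medium and growth as well as in differentiation. Within either contrast these cannot be told apart.

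Smooth muscle cells contract when myosin motors pull on actin filaments. Myosin is switched on by phosphorylation of its regulatory light chain, and tropomyosin, calponin and caldesmon lie along the actin filament and tune the interaction. Most genes of this set are known targets of serum response factor, SRF, which binds DNA elements called CArG boxes and works with the coactivators myocardin and the myocardin-related transcription factors. Bone marrow stromal cells and osteoblast precursors in culture are known to express several of these genes, alpha smooth muscle actin among them.

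Promoter sequences from RefSeq (GRCm38.p6) were at hand for 7 of the 10 genes (Acta2, Cnn1, Cnn2, Myl9, Tpm1, Tpm2 and Cald1, the last with both of its listed starts). The 250 bases before each start were searched on both strands for the CArG box, a palindromic pattern of CC, 6 bases that are each A or T, and GG, and for CArG-like stretches in which 1 of the 6 bases is C or G. The promoters that held a match are printed with the matches in capitals. That of Cnn1, the gene with the largest differences between the lines and each Kusa4b10 group, is printed as well. Myl9 (chr2:156775214-156775463, plus strand) had a CArG box starting 161 bases before the start and a CArG-like stretch at 99. Cnn2 (chr10:79988350-79988599, plus strand) had a CArG box at 56. Acta2 (chr19:34255374-34255623, minus strand) had CArG-like stretches at 84 and 34. Cnn1 (chr9:22099003-22099252, plus strand) had neither pattern in this window.
Acta2: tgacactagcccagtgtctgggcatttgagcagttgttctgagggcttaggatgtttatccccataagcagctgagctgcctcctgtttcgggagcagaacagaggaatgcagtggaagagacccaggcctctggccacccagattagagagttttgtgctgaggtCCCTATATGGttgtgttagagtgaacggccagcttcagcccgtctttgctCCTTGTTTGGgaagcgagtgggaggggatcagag
Myl9: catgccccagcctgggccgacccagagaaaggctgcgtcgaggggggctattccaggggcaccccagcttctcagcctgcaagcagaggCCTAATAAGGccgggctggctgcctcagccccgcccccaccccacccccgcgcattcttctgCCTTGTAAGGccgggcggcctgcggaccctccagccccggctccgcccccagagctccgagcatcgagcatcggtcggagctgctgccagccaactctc
Cnn2: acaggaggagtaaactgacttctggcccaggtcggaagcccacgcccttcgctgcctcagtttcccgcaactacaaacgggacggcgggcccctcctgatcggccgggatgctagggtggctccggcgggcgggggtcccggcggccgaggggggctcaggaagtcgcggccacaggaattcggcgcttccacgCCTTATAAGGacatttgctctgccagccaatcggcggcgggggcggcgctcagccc
Cnn1: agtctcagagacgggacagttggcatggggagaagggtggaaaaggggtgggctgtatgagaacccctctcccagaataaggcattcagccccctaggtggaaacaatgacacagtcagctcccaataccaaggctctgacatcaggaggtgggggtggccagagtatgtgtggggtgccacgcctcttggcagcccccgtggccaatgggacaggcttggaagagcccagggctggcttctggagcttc
Among all 32851 promoters of this length in the table, 1.47% held a CArG box and 7.24% a CArG-like stretch. The matches describe the letters in this window only, and neither pattern was found there for Tpm1, Tpm2 or Cald1.

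All levels are log2 values made by the authors with RMA, and array medians lay between 7.43 and 7.56. Levels of different genes come from different probes and are not compared, except that low levels are set beside those of olfactory receptor genes as a rough guide. Each difference is a log2 difference with the standard error of a limma fit over all genes and 9 arrays, and a gene was called at an adjusted p below 0.05. The labels were checked against bone genes: Ibsp, which encodes bone sialoprotein, averaged 7.02 in osteosarcoma lines, 13.20 in osteoblasts and 6.23 in pre-osteoblasts. Ibsp, Dmp1, Phospho1, Alpl and Sp7 were each called higher in osteoblasts than in pre-osteoblasts. In the lines Ibsp, Dmp1 and Phospho1 were called lower than in osteoblasts, while Alpl (adjusted p = 0.204) and Sp7 (adjusted p = 0.147) were not. Alpl was called higher in the lines than in pre-osteoblasts (2.37 ± 0.72, adjusted p = 0.0468). Line 716H had Alpl at 12.37, against 11.80, 13.01 and 11.66 in osteoblasts. Rb1, the floxed Rb gene, was at 9.26, 9.67 and 9.85 in lines 493H, 494H and 716H, against 10.65, 10.63 and 10.64 in osteoblasts and 9.28, 9.28 and 9.17 in pre-osteoblasts, and since the place of its probes relative to the deleted part was not used here, this does not check the deletion. Osteoblast culture 2 stood apart from the other osteoblast cultures. Against their mean, 9 of the 10 contractile genes were higher in it, by a median over the 10 of 0.72, while the median over all genes was 0.00. Its 14 measured mitosis genes, a list added after values were seen, were higher by a median of 1.11. Its 8 adipocyte markers differed by a median of -0.49. On those markers cultures 1 and 3 differed from each other by a median of 0.45. Of the bone genes, Ibsp (13.62), Phospho1 (11.67), Alpl (13.01) and Sp7 (10.75) were highest in culture 2 among the osteoblast cultures, and Dmp1 (10.35) was lowest in it. Several results that rest on the osteoblast group, though not all, are therefore also given without this culture.

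Most of the contractile genes were called lower in osteoblasts than in pre-osteoblasts and higher in osteosarcoma lines than in osteoblasts, though not all of the 10 in either comparison. Of the 10, 7 were called lower in osteoblasts than in pre-osteoblasts and 0 higher by limma (8 and 0 at an unadjusted p below 0.05), where 15.8% of all genes were called lower, 10.3% higher and 26.1% in either direction. For osteosarcoma lines against osteoblasts, 6 were higher and 0 lower (8 and 0 unadjusted), where 14.7% of all genes were called higher, 12.7% lower and 27.4% in either direction. For osteosarcoma lines against pre-osteoblasts, Cnn1 was higher and 0 genes were lower (2 and 1 unadjusted), where 9.96% of all genes were called higher, 13.5% lower and 23.5% in either direction. Arrays without overlap put 8 genes lower and 0 higher in osteoblasts than in pre-osteoblasts (25.1% and 19.1% of all genes, 44.2% in either direction). They put 6 genes higher and 0 lower in the lines than in osteoblasts (19.6% and 19.1%, 38.7% in either), and 3 higher and 3 lower in the lines than in pre-osteoblasts (15.4% and 20.2%, 35.6% in either). The median difference over the 10 genes was -1.14 between osteoblasts and pre-osteoblasts, 0.88 between osteosarcoma lines and osteoblasts and 0.08 between osteosarcoma lines and pre-osteoblasts, and over all genes it was 0.00, -0.02 and -0.02. The comparisons that involve osteoblasts share the 3 osteoblast arrays, so their counts are not independent of each other. In bulk cultures, fewer cells of a type and less RNA per cell cannot be told apart.

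**Figure D1:**
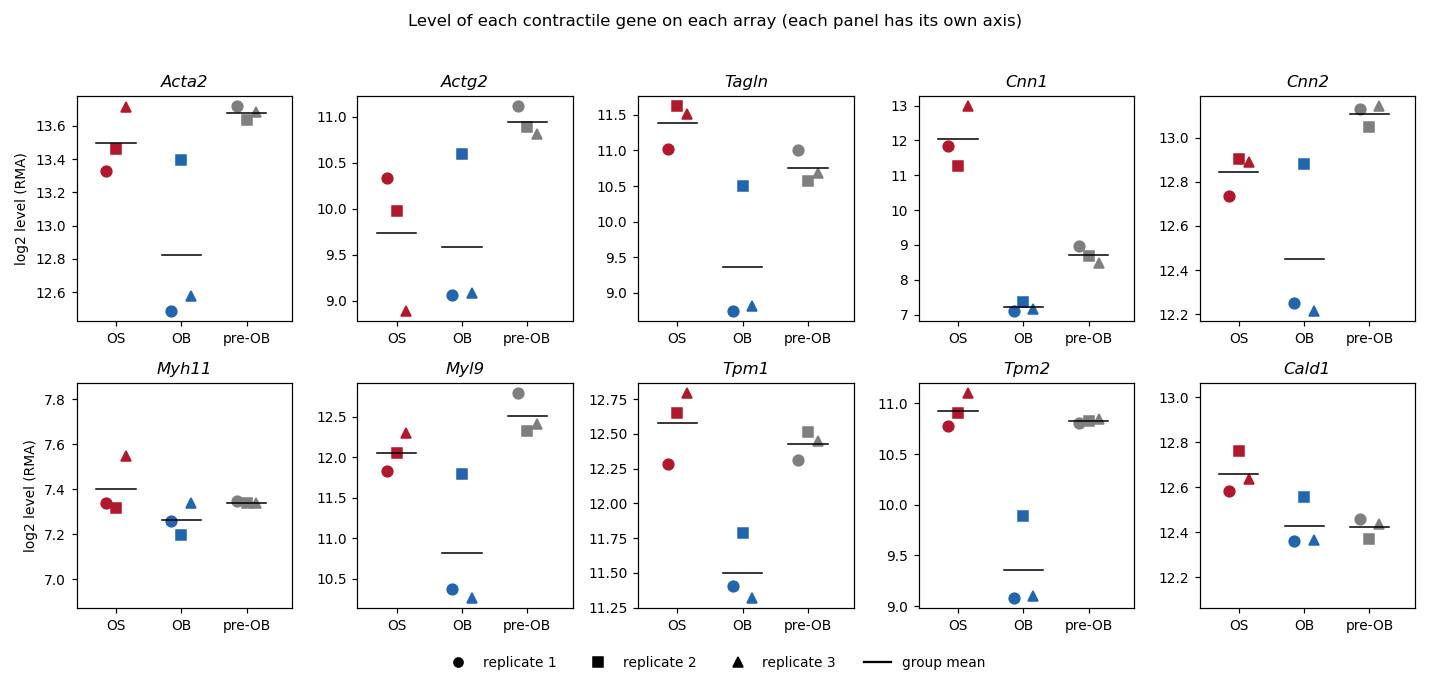
Level of each of the 10 contractile genes on each array, in log2 units on an axis of its own per gene, for osteosarcoma lines (OS, replicates 1 to 3 being lines 493H, 494H and 716H), osteoblast cultures (OB) and pre-osteoblast cultures (pre-OB). Points are arrays and bars are group means. Osteoblast culture 2 lies above the other osteoblast cultures for every gene except Myh11, and Cnn1 is at 11.26 to 12.98 in the lines, above both Kusa4b10 groups.

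Acta2 encodes alpha smooth muscle actin, the usual marker of myofibroblasts. It was at 13.33, 13.46 and 13.71 in lines 493H, 494H and 716H, at 12.49, 13.40 and 12.58 in osteoblast cultures 1, 2 and 3, and at 13.72, 13.64 and 13.68 in pre-osteoblast cultures. Every osteoblast culture lay below every pre-osteoblast culture, and osteoblast culture 2 fell within the range of the lines. Acta2 differed by -0.86 ± 0.22 between osteoblasts and pre-osteoblasts (adjusted p = 0.0221), a call lost without osteoblast culture 1 or 3 or any 1 pre-osteoblast culture (adjusted p up to 0.0830). The lines differed from osteoblasts by 0.68 ± 0.22, which did not pass (adjusted p = 0.0538), and from pre-osteoblasts by -0.18 ± 0.22 (adjusted p = 0.635). The difference between lines and osteoblasts passed in 5 of 17 alternatives: without osteoblast culture 2, where it was 0.97 (adjusted p = 0.00107), with either filter on dim genes, with quantile normalization again and with a trended, robust prior (adjusted p from 0.00107 to 0.172 over all 17).

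Actg2 encodes gamma smooth muscle actin, the actin of visceral smooth muscle. It was at 10.33, 9.98 and 8.90 in lines 493H, 494H and 716H, at 9.06, 10.60 and 9.09 in osteoblasts, and at 11.12, 10.89 and 10.82 in pre-osteoblasts. All pre-osteoblast cultures lay above all other arrays, while lines and osteoblasts overlapped. The differences were -1.36 ± 0.47 between osteoblasts and pre-osteoblasts (adjusted p = 0.0698) and -1.21 ± 0.47 between lines and pre-osteoblasts (adjusted p = 0.110), and neither passed. Without osteoblast culture 2 both passed, at -1.87 (adjusted p = 0.0111) and -1.21 (adjusted p = 0.0405), and without line 716H the difference between lines and pre-osteoblasts was -0.78 (adjusted p = 0.263). The lines differed from osteoblasts by 0.15 ± 0.47 (adjusted p = 0.858), with values from -0.14 to 0.66 over the alternatives. The smooth muscle actins are close relatives of each other and of the cytoplasmic actins, and how far their probes share signal was not tested.

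Tagln encodes transgelin, also called SM22 alpha, an actin-binding protein of early smooth muscle differentiation. It was at 11.02, 11.62 and 11.51 in the lines, at 8.75, 10.50 and 8.82 in osteoblasts and at 11.01, 10.57 and 10.68 in pre-osteoblasts. The groups did not overlap: the lines were highest, pre-osteoblasts next and osteoblasts lowest, although line 493H and pre-osteoblast culture 1 differed only in the second decimal. Tagln was higher in the lines than in osteoblasts by 2.03 ± 0.43, or 4.09-fold (adjusted p = 0.00901), a call that held in all 17 alternatives. In osteoblasts against pre-osteoblasts it stood at -1.40 ± 0.43 (adjusted p = 0.0459), a call lost without any 1 array other than osteoblast culture 2 (adjusted p up to 0.155). The lines and pre-osteoblasts differed by 0.63 ± 0.43 (adjusted p = 0.362), and by the same amount with an adjusted p of 0.0414 without osteoblast culture 2.

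Cnn1 encodes calponin 1, an inhibitor of the actomyosin ATPase that is typical of differentiated smooth muscle. It was at 11.85, 11.26 and 12.98 in lines 493H, 494H and 716H, at 7.12, 7.36 and 7.17 in osteoblasts, and at 8.96, 8.69 and 8.48 in pre-osteoblasts. The 3 groups did not overlap, and the lowest line lay more than 2 log2 units above the highest Kusa4b10 culture. The lines were higher than osteoblasts by 4.82 ± 0.37 (adjusted p = 0.000102). Against pre-osteoblasts the lines were higher by 3.32 ± 0.37 (adjusted p = 0.000595), and each of these calls held in all 17 alternatives. Osteoblasts were lower than pre-osteoblasts, at -1.50 ± 0.37 (adjusted p = 0.0190), a call lost without osteoblast culture 1 or 3 or pre-osteoblast culture 1 or 2 (adjusted p up to 0.0652). As a guide to low levels, which the deposited table does not mark, the 95th and 99th percentiles of the mean level of 1027 olfactory receptor genes in osteoblasts were 6.86 and 7.61, and Cnn1 in osteoblasts lay between them. The size of its differences from osteoblasts is therefore uncertain, since the true level there may be lower than the measured one.

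Cnn2 encodes calponin 2, a form found also in non-muscle cells. It was at 12.74, 12.90 and 12.89 in the lines, at 12.25, 12.88 and 12.22 in osteoblasts and at 13.13, 13.05 and 13.14 in pre-osteoblasts. Osteoblasts lay below pre-osteoblasts without overlap, and the lines lay between them except that osteoblast culture 2 fell among the lines. Between osteoblasts and pre-osteoblasts Cnn2 stood at -0.66 ± 0.16 (adjusted p = 0.0184), a call lost without osteoblast culture 1 or 3 or pre-osteoblast culture 1 or 3 (adjusted p up to 0.0709). The lines differed from osteoblasts by 0.39 ± 0.16 (adjusted p = 0.116), which passed at 0.61 (adjusted p = 0.00116) without osteoblast culture 2. Against pre-osteoblasts they differed by -0.27 ± 0.16 (adjusted p = 0.303), which passed without that culture (adjusted p = 0.0236) or when the osteoblast arrays did not enter the fit (adjusted p = 0.0468).

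Cald1 encodes caldesmon, which binds actin, myosin and calmodulin. It was at 12.58, 12.76 and 12.64 in the lines, at 12.36, 12.56 and 12.36 in osteoblasts and at 12.46, 12.37 and 12.44 in pre-osteoblasts. All lines lay above all Kusa4b10 cultures by a small margin. The lines were higher than osteoblasts by 0.23 ± 0.07 (adjusted p = 0.0492), a call that held in 6 of 17 alternatives and was lost without line 494H or 716H, without osteoblast culture 1 or 3 and without any 1 pre-osteoblast culture (adjusted p up to 0.155). Against pre-osteoblasts they differed by 0.24 ± 0.07 (adjusted p = 0.0505), and this passed in 5 of 17 alternatives. Osteoblasts stood at 0.01 ± 0.07 against pre-osteoblasts (adjusted p = 0.97), with values from -0.06 to 0.11 over the alternatives.

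Tropomyosins are coiled-coil proteins that polymerise along actin filaments. Tpm1 was at 12.29, 12.65 and 12.79 in the lines, at 11.40, 11.78 and 11.32 in osteoblasts and at 12.31, 12.52 and 12.45 in pre-osteoblasts. All osteoblast cultures lay below all other arrays, while lines and pre-osteoblasts overlapped. Osteoblasts were lower than pre-osteoblasts in Tpm1, at -0.92 ± 0.16 (adjusted p = 0.00330). The lines were 2.10-fold higher than osteoblasts (1.07 ± 0.16, adjusted p = 0.00154).

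Tpm2 was at 10.77, 10.91 and 11.10 in the lines, at 9.08, 9.89 and 9.10 in osteoblasts and at 10.81, 10.83 and 10.84 in pre-osteoblasts. Its pattern had the same form, with every osteoblast culture below every other array. Osteoblasts were 2.77-fold lower than pre-osteoblasts (-1.47 ± 0.20, adjusted p = 0.00129). It was 2.96-fold higher in the lines than in osteoblasts (1.57 ± 0.20, adjusted p = 0.000868). All 4 tropomyosin calls held in every alternative. Against pre-osteoblasts the lines differed in Tpm1 by 0.15 ± 0.16 (adjusted p = 0.571) and in Tpm2 by 0.10 ± 0.20 (adjusted p = 0.792).

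Myl9 encodes the regulatory light chain of smooth muscle myosin, whose phosphorylation starts contraction. It was at 11.82, 12.05 and 12.30 in the lines, at 10.38, 11.79 and 10.26 in osteoblasts and at 12.79, 12.32 and 12.41 in pre-osteoblasts. The groups did not overlap, with pre-osteoblasts highest and osteoblasts lowest, but osteoblast culture 2 and line 493H, as well as line 716H and pre-osteoblast culture 2, were almost equal. Osteoblasts had 3.24-fold less Myl9 than pre-osteoblasts (-1.70 ± 0.37, adjusted p = 0.0110), a call that held in all 18 alternatives. It was higher in the lines than in osteoblasts by 1.25 ± 0.37 (adjusted p = 0.0390), a call that held in 7 of 17 alternatives. Without osteoblast culture 2 that difference was 1.74 (adjusted p = 0.000673), and without any 1 of the other arrays the call was lost (adjusted p up to 0.134). The lines and pre-osteoblasts differed by -0.45 ± 0.37 (adjusted p = 0.461).

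Myh11 encodes the heavy chain of smooth muscle myosin, the most specific marker of mature smooth muscle in the set. It was at 7.34, 7.32 and 7.55 in the lines, at 7.26, 7.20 and 7.34 in osteoblasts and at 7.35, 7.34 and 7.34 in pre-osteoblasts. The groups overlapped, line 716H was the highest array, and all group means lay between the 95th and 99th percentiles of the olfactory receptor genes (6.78 and 7.56 in the lines, 6.83 and 7.58 in pre-osteoblasts). The differences were 0.06 ± 0.07 between lines and pre-osteoblasts (adjusted p = 0.629), 0.14 ± 0.07 between lines and osteoblasts (adjusted p = 0.221) and -0.08 ± 0.07 between osteoblasts and pre-osteoblasts (adjusted p = 0.527). On 4 of the 9 arrays the deposited level was the same to 4 decimals, 7.3373, as was some value on at least 4 arrays for 2376 genes in all.

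**Figure D2:**
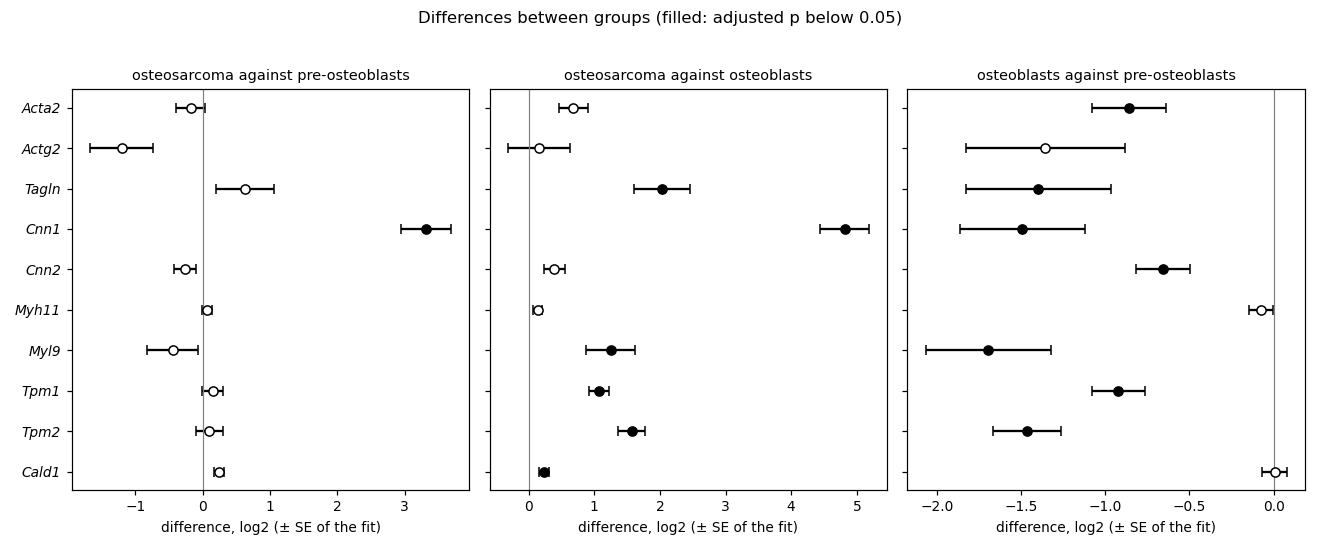
Log2 difference of each contractile gene in the 3 comparisons, with bars for the standard error of the limma fit (3 arrays in each group) and filled points for an adjusted p below 0.05. The horizontal axes differ. Only Cnn1 is filled between osteosarcoma lines and pre-osteoblasts, and every filled point lies below 0 between osteoblasts and pre-osteoblasts.

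The count of 7 genes lower in osteoblasts than in pre-osteoblasts was 8 without osteoblast culture 2. It was 3 without osteoblast culture 1 or 3 or pre-osteoblast culture 1, and 4 without pre-osteoblast culture 2 or 3. Myl9, Tpm1 and Tpm2 were called in each of these settings. The count of 6 genes higher in the lines than in osteoblasts ranged from 4 to 8 with 1 array left out, and Tagln, Cnn1, Tpm1 and Tpm2 were called in each. For the lines against pre-osteoblasts, the counts were 3 higher and 2 lower without osteoblast culture 2, against 1 and 0 with all arrays.

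The contractile genes varied in different ways within the groups. Among the lines, Cnn1 and Actg2 varied most, over 1.72 and 1.44 log2 units, where 4.94% of all genes varied over more than 1. Line 716H was the highest line for Cnn1 and the lowest for Actg2. Line 716H was also the highest for Acta2, Myl9, Tpm1, Tpm2 and Myh11, and thus for 6 of the 10 genes, and line 493H was the lowest for 7. The median range over the lines was 0.43 for the 10 genes and 0.22 for all genes. Each line has 1 array, so differences between lines cannot be tested. Among osteoblast cultures, culture 2 exceeded the mean of the other cultures by 1.72 for Tagln, 1.52 for Actg2, 1.47 for Myl9, 0.86 for Acta2, 0.80 for Tpm2 and 0.65 for Cnn2. The excess was 0.42 for Tpm1, 0.22 for Cnn1 and 0.19 for Cald1, and Myh11 differed by -0.10. Cultures 1 and 3 differed from each other by no more than 0.12 for any of the 10 genes. Pre-osteoblast cultures varied over 0.01 to 0.47.

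**Figure D3:**
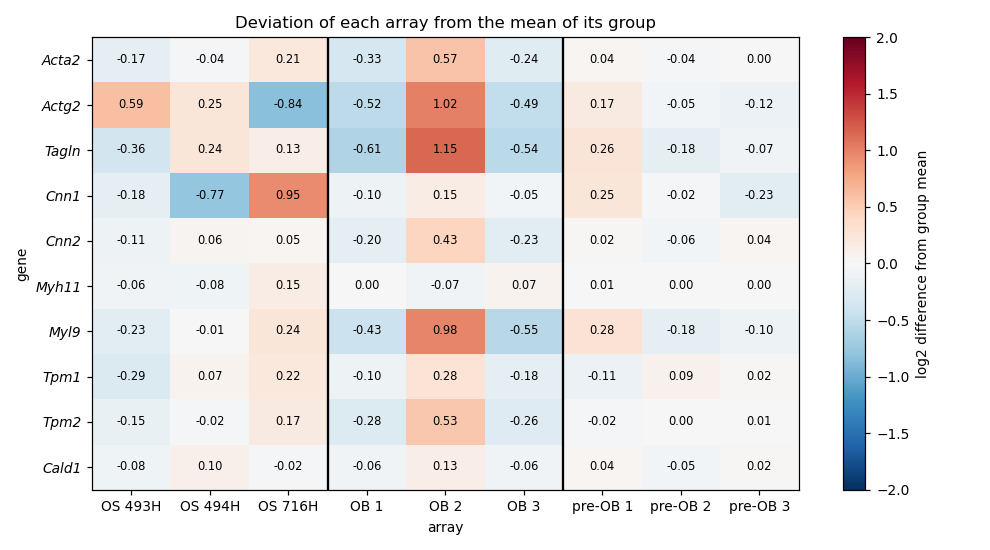
Deviation of each array from the mean of its group, in log2 units, for the 10 contractile genes (rows) on the 9 arrays (columns, with vertical lines between the groups). The largest deviation on the plot is that of Tagln in osteoblast culture 2 (OB 2), at 1.15, and lines 494H and 716H deviate in opposite directions for Cnn1, by -0.77 and 0.95.

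The genes whose pattern over the 9 arrays was most like that of Acta2, among 2440 other genes with an SD of at least 0.5, were Csrp2, a LIM protein of smooth muscle (Pearson r = 0.98), Armcx4 (0.97) and palladin, Palld, which crosslinks actin in stress fibres (0.96). For Tagln they were the homeobox gene Prrx2 (0.96), the kinetochore gene Ndc80 (0.96) and the sorting nexin Snx7 (0.96). For Cnn1 they were the phosphodiesterase Pde7a (0.99), the transmembrane protein Crim1 (0.99) and the protocadherin Pcdhb22 (0.98). These coefficients are descriptive, since the arrays fall into 3 groups and most of each r comes from the group means. Pcdhb22 was higher in the lines than in pre-osteoblasts by 1.20 ± 0.21, and Crim1 was higher in the lines than in pre-osteoblasts by 0.85 ± 0.09 and than in osteoblasts by 1.24 ± 0.09. Both were picked because they follow Cnn1 on these arrays, so the direction of their differences comes from that choice and is no separate result. Among the contractile genes themselves the closest pairs were Acta2 with Myl9 (0.99), Tpm1 with Tpm2 (0.98) and Cnn2 with Myl9 (0.98), while the lowest coefficients were those of Actg2 with Cnn1 (-0.13) and with Myh11 (-0.35).

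SRF and its cofactors were measured through 12 genes. The counts of this and the later lists are to be read beside the shares of all genes called. Between osteoblasts and pre-osteoblasts these shares were 15.8% lower and 10.3% higher. For the lines they were 14.7% higher and 12.7% lower against osteoblasts, and 9.96% higher and 13.5% lower against pre-osteoblasts. Of these 12 genes, 6 were lower and 1 higher in osteoblasts than in pre-osteoblasts, with a median of -0.35. Srf itself was at 9.37, 9.96 and 9.69 in osteoblasts, against 10.38, 10.51 and 10.27 in pre-osteoblasts (-0.71 ± 0.17, adjusted p = 0.0143). Mrtfa, a coactivator that senses free actin, was lower by -1.08 ± 0.15 (adjusted p = 0.00136), Mrtfb by -0.42 ± 0.07 and Elk3, an Ets factor that partners SRF, by -1.19 ± 0.08. Myocd, which encodes myocardin, was lower by -0.67 ± 0.12 (adjusted p = 0.00422), at 6.29 to 6.51 in osteoblasts and 6.98 to 7.09 in pre-osteoblasts. Its means in osteoblasts and in the lines lay below the 95th percentile of the olfactory receptor genes, so the size of its differences is uncertain. The gene that was higher in osteoblasts was Klf4, a zinc finger factor known to repress smooth muscle genes (2.60 ± 0.29, adjusted p = 0.000506), and 2 were higher without line 494H or 716H.

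In the lines, compared with osteoblasts, 4 of these 12 genes were higher and 1 lower. Mrtfa (1.06 ± 0.15), Srf (0.63 ± 0.17), Mrtfb (0.39 ± 0.07) and Elk3 (0.32 ± 0.08) were higher in the lines, and Klf4 was lower (-1.47 ± 0.29). The number higher was 2 without osteoblast culture 1 and 5 without osteoblast culture 2, and the number lower was 2 without line 493H or 494H. Against pre-osteoblasts 3 were lower in the lines and 1 higher: the GATA factor Gata6 (-1.23 ± 0.32), Elk3 (-0.87 ± 0.08) and Myocd (-0.57 ± 0.12) were lower, and Klf4 was higher (1.13 ± 0.29), a call lost without any 1 pre-osteoblast culture. In that comparison Srf was at -0.08 ± 0.17 (adjusted p = 0.794) and Mrtfa at -0.02 ± 0.15 (adjusted p = 0.945).

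Other smooth muscle contractile and attachment genes numbered 30. Between osteoblasts and pre-osteoblasts 11 were lower and 1 higher, with a median of -0.26. The number lower was 13 without osteoblast culture 2. The 1 higher was 0 without osteoblast culture 1 or pre-osteoblast culture 2, 2 without line 494H and 3 without line 716H. Ldb3, a Z-disc protein of striated muscle (-2.11 ± 0.14), the small heat shock protein gene Hspb6 (-1.85 ± 0.20), the focal adhesion gene Tgfb1i1 (-1.68 ± 0.25) and Palld (-1.30 ± 0.22) fell. The lines had 10 of these genes higher and 2 lower than osteoblasts, with Palld at 1.18 ± 0.22 and Csrp2 at 1.18 ± 0.26 among those higher. The 2 lower were Sncg (-1.41 ± 0.29) and Mylk, the kinase that phosphorylates the myosin light chain (-0.92 ± 0.28). The number higher was 6 without osteoblast culture 1 or 3 and 12 without osteoblast culture 2. The number lower was 1 without osteoblast culture 1 or 2 or pre-osteoblast culture 3. Relative to pre-osteoblasts, the lines had 6 lower and 1 higher. Over all genes 23.5% were called in either direction, so the called part of this list was near that share. Ldb3 (-2.30 ± 0.14), Hspb6 (-1.86 ± 0.20) and Mylk (-1.01 ± 0.28) were among those lower, and Synpo2 (0.85 ± 0.15) was higher. The number lower was 3 without pre-osteoblast culture 1 or 3, and the number higher was 2 without line 494H or 716H. Desmin, Des, the intermediate filament of muscle, was at -0.06 ± 0.11 against pre-osteoblasts (adjusted p = 0.755).

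The paralogs of the contractile genes include the forms that act in the cytoskeleton of most cells. Of 15 measured, 11 were lower in osteoblasts than in pre-osteoblasts and 0 higher, with a median of -0.44, and 12 were lower without osteoblast culture 2. In the lines 11 were higher than in osteoblasts and 0 lower, with a median of 0.36. Tagln2 was at 10.41, 10.77 and 10.34 in osteoblasts, against 12.17, 12.21 and 12.16 in pre-osteoblasts (-1.67 ± 0.11, adjusted p = 4.51e-05). The tropomyosin genes Tpm4 (-1.10 ± 0.18) and Tpm3 (-0.63 ± 0.09) were also lower. Beta-actin, Actb, was at -0.09 ± 0.05 (adjusted p = 0.274). Myh10, the heavy chain of non-muscle myosin IIB, was higher in the lines than in osteoblasts by 2.01 ± 0.17 and higher than in pre-osteoblasts by 1.02 ± 0.17 (adjusted p = 0.00313). In the lines against pre-osteoblasts 3 paralogs were higher and 2 lower, and 1 was lower without pre-osteoblast culture 2 or 3. Cnn3 was among those higher (0.51 ± 0.07), and Tagln2 among those lower (-0.69 ± 0.11).

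Among 10 TGF-beta ligands, receptors and Smads, which include the main inducers of myofibroblasts, 4 were higher and 1 lower in osteoblasts than in pre-osteoblasts. Tgfbr1 (1.53 ± 0.11) and Tgfb1 (0.82 ± 0.11) were among those higher in osteoblasts. The gene that was lower, Smad7, was not called without osteoblast culture 1 or 2 or pre-osteoblast culture 1 or 2, and 2 were lower without line 494H. Between the lines and osteoblasts 2 were higher, Smad7 (0.58 ± 0.08) and Tgfbr2 (0.345 ± 0.049), and 2 lower, Tgfb1 (-1.78 ± 0.11) and Tgfbr1 (-0.94 ± 0.11). Between the lines and pre-osteoblasts 4 were higher: Tgfbr2 (0.65 ± 0.05), Tgfbr1 (0.59 ± 0.11), Tgfb3 (0.53 ± 0.16) and Smad4 (0.43 ± 0.06). In that comparison 1 was lower, Tgfb1, at -0.96 ± 0.11.

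Markers of other cell types that could carry or dilute these transcripts were examined in the same fit. Of 27 skeletal and cardiac muscle markers, 2 were lower in osteoblasts than in pre-osteoblasts, Tnnc1 (-0.68 ± 0.16) and Neb (-0.41 ± 0.09), and 1 without osteoblast culture 2 or 3 or pre-osteoblast culture 2. Of the same list 1 was higher in the lines than in osteoblasts, Neb (0.42 ± 0.09), whose osteoblast mean of 6.65 lay below the 95th percentile of the olfactory receptor genes so that both of its differences are uncertain in size, and 2 without line 493H or 716H, osteoblast culture 1 or pre-osteoblast culture 1. For the lines against pre-osteoblasts limma called 0 (0 also at an unadjusted p below 0.05), and 1 without line 493H. The mean level of this list was 6.89 to 6.95 in the lines, 6.86 to 6.92 in osteoblasts and 6.91 to 6.92 in pre-osteoblasts. Of 9 pericyte markers, 1 was higher and 2 lower in the lines than in pre-osteoblasts, with Notch3 at -2.22 ± 0.08 and Cspg4, the NG2 proteoglycan, at 1.34 ± 0.15, and 1 was lower without pre-osteoblast culture 1. Against osteoblasts 1 was higher and 2 lower. Between osteoblasts and pre-osteoblasts 1 was higher, Mcam (0.53 ± 0.14), which was not called without osteoblast culture 1 or 3 or any 1 pre-osteoblast culture, and 2 were higher without line 493H or 716H, while 1 was lower without pre-osteoblast culture 2. Of 9 haematopoietic and endothelial markers, limma called 0 in every comparison. At an unadjusted p below 0.05, Tek was higher in the lines than in pre-osteoblasts and Csf1r was higher in the lines than in osteoblasts. By that threshold 0 differed between osteoblasts and pre-osteoblasts. Tek was at 9.02, 6.28 and 7.15 in lines 493H, 494H and 716H and at 6.16, 6.30 and 6.06 in pre-osteoblasts. For Tek, line 494H thus lay within the pre-osteoblast range. Without line 494H 1 marker was called higher in the lines than in pre-osteoblasts and 2 were called higher than in osteoblasts.

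Adipocyte markers and mitosis genes differed between the same groups as the contractile genes. Of 8 adipocyte markers, 6 were higher in osteoblasts than in pre-osteoblasts and 0 lower, with Adipoq, the fat cell hormone adiponectin, at 4.65 ± 0.52, and the mean level of the list was 10.25 to 10.94 in osteoblasts and 7.45 to 7.94 in pre-osteoblasts. In the lines it was 7.09 to 7.39, with 7 of 8 markers lower than in osteoblasts, and 1 lower than in pre-osteoblasts (2 without pre-osteoblast culture 2). Of 14 mitosis genes, 14 were lower in osteoblasts than in pre-osteoblasts and 14 were higher in the lines than in osteoblasts, with mean levels of 11.25 to 11.71 in the lines, 8.52 to 9.75 in osteoblasts and 10.82 to 11.59 in pre-osteoblasts. For the lines against pre-osteoblasts limma called 0 of them (0 also unadjusted). The mean level of the contractile genes was 11.41 to 11.64 in the lines, 10.01 to 10.80 in osteoblasts and 11.22 to 11.37 in pre-osteoblasts. The part of fat cell differentiation, of growth state and of osteoblast culture 2 in the differences of the contractile genes was not tested.

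**Figure D4:**
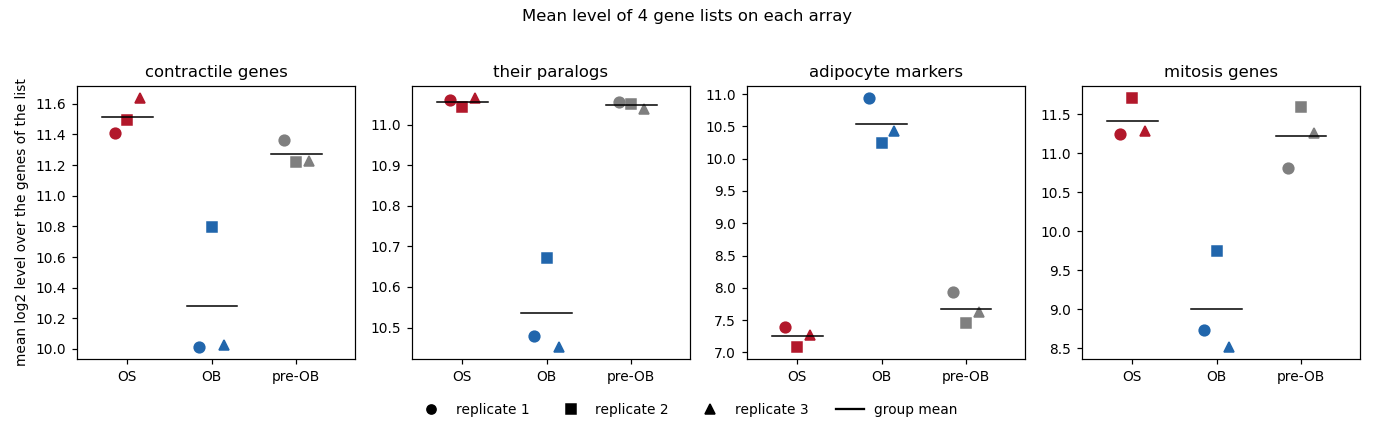
Mean log2 level per array of the 10 contractile genes, their 15 paralogs, 8 adipocyte markers and 14 mitosis genes, for osteosarcoma lines (OS), osteoblasts (OB) and pre-osteoblasts (pre-OB), with bars at group means and an axis of its own per list. Osteoblasts are lowest for contractile genes, paralogs and mitosis genes and highest for adipocyte markers, and within osteoblasts culture 2 is the highest for contractile genes, paralogs and mitosis genes.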

How the data were processed

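RNA of 9 samples was measured on expression arrays, 3 per group. The values the authors deposited are log2 levels of 35556 probe sets. RMA and the build mm9 appear in the submitters' processing notes, and the RMA version and any filters are not stated there. RMA normalizes between arrays and thus sets each gene relative to the rest of its array, and it compresses differences near background. Probe sets with 1 gene symbol (21789) were kept, and the one with the highest mean was used for a gene with several, which left 19938 genes. Group means were fitted across all genes with limma 3.58.1 in R 4.3.3 (6 residual and 2.19 prior degrees of freedom), two-sided, with Benjamini-Hochberg adjustment over all genes. The number of arrays limits the precision. Each p-value sets a difference against 1 spread per gene, pooled over 3 tumour lines and repeat cultures of 1 Kusa4b10 line. That spread was not equal between groups. For Cnn1 the SD was 0.87 in the lines, 0.13 in osteoblasts and 0.24 in pre-osteoblasts, and for Tagln it was 0.32, 0.99 and 0.23. A standard error between 2 groups can thus come largely from the third. In simulated data 78% to 82% of 50 genes changed by 1 log2 were recovered, and 4.02% to 8.09% of calls were false. The simulation changed far fewer genes than were called here and gave each gene the same spread in every group. Its shares may therefore not hold for the real data. At most 4.33% of values were equal between arrays of a group.

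The 10 genes and all lists were chosen with earlier results of these data known. The text names the 10 genes, list genes with the largest called differences, further members of those lists of known role, and the 3 genes most alike to Acta2, Tagln and Cnn1. Further members, Ibsp, Dmp1, Phospho1, Alpl, Sp7, Rb1 and the mitosis genes were named after values were seen. Alternatives were filters on dim genes, the mean of probe sets, quantile normalization, median centring, only the compared groups, array weights, a trended prior, each array left out and a replicate block. Promoters came from RefSeq, whose build differs from mm9 and was used for these sequences only. One further gene list of the analysis is not reported here.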

Additional observations from a re-analysis of the deposited data

How the results depend on the processing

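Over 517 alternative values of the 10 genes in the 3 comparisons, 452 kept their side of the threshold, 45 lost a call, 20 gained one and 0 called values changed sign. Of the 14 calls, 8 held in every alternative: Cnn1 in both comparisons of the lines, Tagln between lines and osteoblasts, Tpm1 and Tpm2 in both comparisons with osteoblasts, and Myl9 between osteoblasts and pre-osteoblasts. Between lines and pre-osteoblasts, the number higher was 2 with genes above the median level only, with genes above the lower quartile only, with quantile normalization again and with a trended, robust prior, Cald1 joining Cnn1 each time. The number lower was 1 when the fit held the compared groups alone. With 1 array left out, the counts were 1 to 3 higher and 0 to 2 lower between lines and pre-osteoblasts, and 3 to 8 lower between osteoblasts and pre-osteoblasts. Quantile normalization again and median centring moved the median of all genes by -0.04 to 0.03. Leaving out an array also removes a residual degree of freedom for every gene, so a lost call does not show a smaller difference.

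The replicate numbers shared by osteoblast and pre-osteoblast cultures were not taken as pairs, since no label says that a number marks a shared batch. The deviations of same-numbered cultures correlated by 0.15, 0.18 and 0.03. Differently numbered cultures were not set beside them, so these values do not decide whether the cultures were paired. With the replicate block, Tagln between these groups lost its call (adjusted p = 0.0795) and Actg2 gained one (-1.36, adjusted p = 0.0480), and 7 genes were lower. Over all genes the block called 5883, against 6316 without it in a fit of the same groups.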
